A study of Mus musculus with 7 samples.

Results

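The transcriptome of the hippocampal synaptic fraction in mice that received no active drug is described here from the 3 libraries labelled vehicle, out of 7 libraries in the series. They were chosen by that label, with earlier results of these data known, and carry the replicate letters B, D and E. All 3 come from synaptoneurosomes prepared from the hippocampus of female C57Bl/6J mice, wild type, after sub-chronic vehicle. The other 4 libraries come from mice of the same strain, sex and genotype given AM6545, which blocks CB1 (gene Cnr1), the main cannabinoid receptor of the brain, and acts mostly outside the brain, and are not analysed here. The title of the series places the work in the context of cognitive performance and synaptic plasticity. The labels used here do not state what the vehicle was, its dosing, the age of the mice or how many mice went into a library. Nothing in them says that the 3 libraries came from separate animals or preparations, so every SD below measures the spread between these libraries, which may be technical.

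A synaptoneurosome is a pinched-off nerve ending that remains attached to a resealed piece of the postsynaptic spine, obtained by breaking tissue gently and separating the fragments. Neurons send selected mRNAs into dendrites and axons and translate them near synapses, which lets a synapse change its protein content after activity. Such fractions also hold mitochondria, fragments of myelin, fine processes of astrocytes, and pieces of other cells that sediment with the synapses. A share of an mRNA in the fraction therefore does not say in which compartment of which cell it lay. In such a bulk sample, fewer cells or processes of a type and less RNA in each of them cannot be told apart.

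The libraries held 25894733 (B), 23973826 (D) and 19174649 (E) estimated counts over 22248 genes, and 16865, 16817 and 16580 genes had at least 1 count. Levels are given per length: a gene's estimated count divided by the mean length of its annotated transcripts, weighted by their abundance, and scaled so that all genes of a library sum to 1000000. For 89 genes with under 50% of their counts on annotated transcripts, the length of the longest transcript, coding where there was one, was used instead. A level of 1000 is thus 1 in 1000 of the length-corrected signal. Where 3 values stand in a row, they belong to libraries B, D and E in that order, and "±" gives the SD over the 3 libraries (n = 3). The median level of the 15941 genes with counts in all 3 libraries was 10.5. A total of 3 counts corresponded to 0.116, 0.125 and 0.156 CPM (counts scaled to a total of 1000000). Counting alone would give a median coefficient of variation (CV, the SD over the mean) of 16.7% for genes with 10 to 100 counts and of 3.72% for those with at least 100, so low levels are less precise.

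Expression was concentrated in few genes. Only 277, 398 and 364 genes together held 50% of the level (346 ± 62.4), whereas 3930, 4442 and 4293 were needed to reach 90%. The 20 genes with the highest mean held 24.8%, 19.4% and 19.9% of the level (21.4% ± 2.98). Library B was the most concentrated of the 3 by both measures, and its share of mitochondrially encoded mRNA was also the highest. Without the mitochondrially encoded genes, 530, 597 and 543 genes held 50% of the level. A level of at least 1000 was reached by 105, 107 and 109 genes and a level of at least 100 by 1649, 1804 and 1750.

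The most abundant mRNAs were those encoded by the mitochondrial genome, which specifies core subunits of the respiratory chain and ATP synthase. The 13 of them held 18.1%, 12.6% and 12.2% of the level (14.3% ± 3.28) and 9.83%, 6.38% and 6.11% of the counts. The highest was mt-Atp6, a subunit of ATP synthase, at 42867, 29843 and 28980. It was followed by the cytochrome c oxidase subunits mt-Co3, at 39694, 26042 and 26889, and mt-Co1, at 23460, 16818 and 15685. The lowest was mt-Nd4l, a small complex I subunit, at 712, 636 and 546. Every one of the 13 was highest in library B, and libraries D and E differed little. For 7 of the 13, over 50% of the 31-base stretches of the mRNA also occur in transcripts of other genes, among them nuclear copies of mitochondrial sequence, so their counts depend on how shared reads were divided. Of those named above, mt-Atp6, mt-Co3, mt-Co1 and mt-Nd4l are among the 7.

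Among nuclear genes, Fth1, the heavy chain of the iron store ferritin, was the highest, at 14768, 14094 and 12775 (13879 ± 1014). Mbp, which encodes myelin basic protein and whose mRNA is carried into the myelin sheath, was next at 9305, 10829 and 13203. It exceeded Fth1 in library E and not in B or D, so the first place was not separated by the spread. The next genes were made largely by glia and by many cell types: Apoe, the main lipid carrier of the brain, stood at 8455, 7132 and 8264, and Cst3, the protease inhibitor cystatin C, at 7908, 6004 and 6993. Ubb, a polyubiquitin gene, reached 6207, 5998 and 7365. Apoe lay below Mbp in all 3 libraries without overlap.

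Several of the 30 highest nuclear genes serve calcium signalling, secretion and vesicle function in neurons. Calm2, encoding calmodulin, stood at 6249, 6317 and 5484. Hpca, the neuronal calcium sensor hippocalcin, had the smallest CV of the 30, at 2688, 2902 and 2831 (2807 ± 109). Nrgn, encoding neurogranin, a postsynaptic protein that binds calmodulin, had 2395, 2117 and 2029.6. Snap25, the membrane fusion protein of nerve terminals, had 2520.1, 3064 and 2817 and Cpe, the carboxypeptidase that matures neuropeptides, 5726, 5777 and 6687. The proton pump subunit gene Atp6v0c, whose pump acidifies vesicles, had 3636, 3439 and 2861. Levels of Rtn1, a protein of the endoplasmic reticulum, were 3782, 3420.5 and 3252, and those of the secreted neuronal protein Olfm1 were 3183, 3332 and 2897. The amyloid precursor relative Aplp1 was close to equal in the 3 libraries, at 2092, 2285 and 2256.

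A further group serves energy supply, the cytoskeleton and protein turnover. The glycolytic genes Gapdh and Aldoa stood at 3871, 4247 and 5661 and at 3785, 4029.6 and 5601, and Aldoc, the aldolase of astrocytes, at 2079, 2045 and 2694. Ckb, the brain creatine kinase that buffers ATP, had 3054, 3153 and 4699.9. All 4 were highest in library E. Tmsb4x, an actin-binding peptide, had 5379, 4988 and 4203, and Tuba1a, a neuronal tubulin, 2218, 2283 and 3140.1. The chaperone Hspa8 had 1859, 2108 and 2933 and the cyclophilin Ppia 3165, 3143 and 2839. The respiratory chain subunit gene Cox8a had 2912, 2179 and 2058, and the secreted chaperone Clu had 2165, 2360.1 and 2479.6.

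Mobp and Ttr were among the 3 least steady of the 30. Mobp, a myelin protein, had 1387, 2016 and 3110.1, with a CV of 40.2%. Ttr, the thyroid hormone carrier made by the choroid plexus, had 2499, 4222 and 2193 (CV 36.8%). Mobp was highest in E and lowest in B, and Ttr was highest in D. The predicted gene Gm20594 was also among the 30, at 3715, 2827 and 2611, and about 10% of its 31-base stretches occur in the mitochondrial ribosomal RNA mt-Rnr2.

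Within the 30, neighbours in rank were mostly not separated by their spread. Of the 29 pairs of neighbours, 2 did not overlap over the 3 libraries, Mbp above Apoe and Calm2 above Tmsb4x. The 20 highest nuclear genes of each library had 14 genes in common, the 100 highest had 85 and the 1000 highest had 858. Of the 30 genes, 5 (Gapdh, Ppia, Hspa8, Tuba1a and Ubb) share over 50% of their 31-base stretches with processed copies or relatives, and their values are uncertain to that extent. For 14 of the 30 the share was under 1%.

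**Figure D1:**
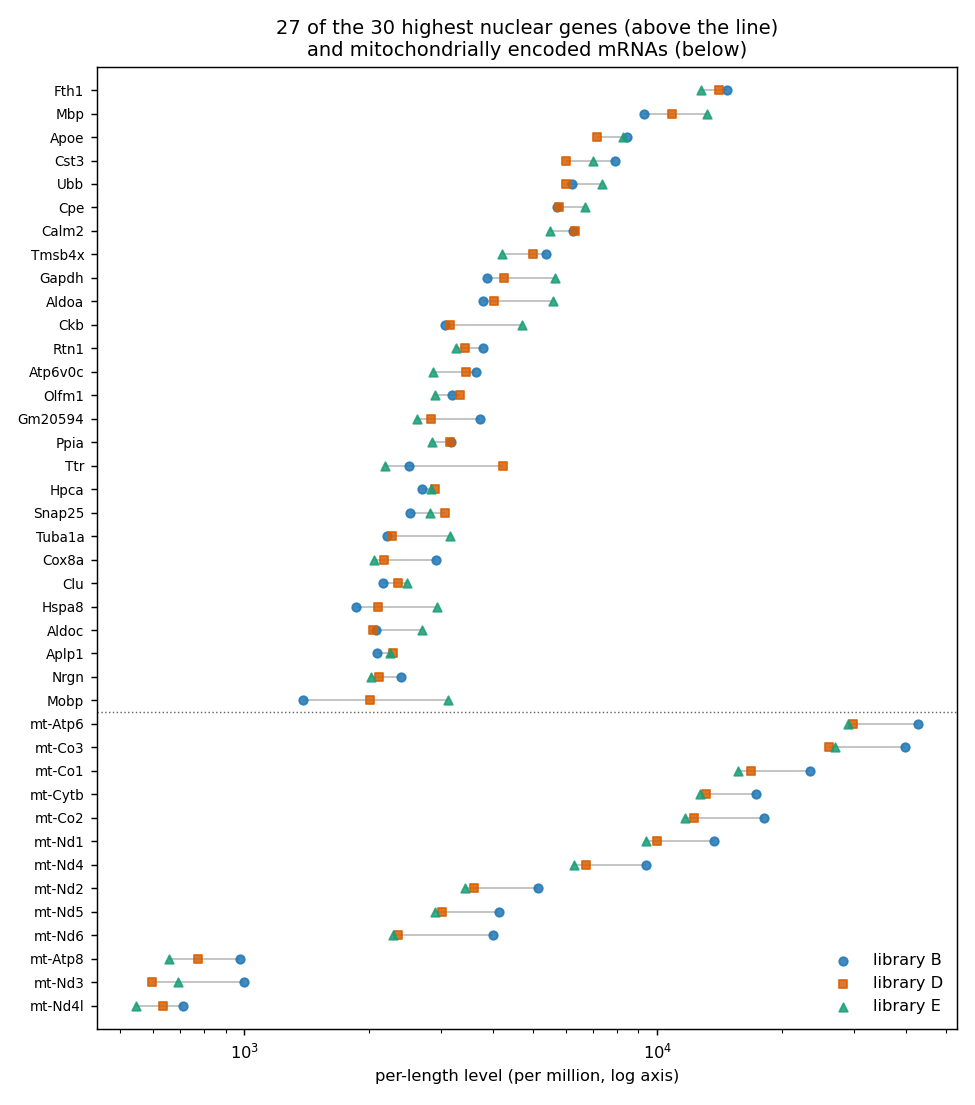
Per-length level (log axis, library total scaled to 1000000) of 27 of the 30 nuclear genes with the highest mean and, below the dotted line, the 13 mitochondrially encoded mRNAs, 1 line per gene in rank order, with 1 symbol for each of libraries B, D and E. Fth1 leads with 12775 to 14768 and Mobp closes the nuclear list with 1387 to 3110, neighbouring genes overlap in most places, and library B lies to the right for all 13 mitochondrial mRNAs.

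Markers of 15 cell types, taken as lists, placed neurons first by the median over the 3 libraries and the vasculature near the bottom. In library E the median of the red blood cell list, 402, was above that of the general neuron list, 331. The median member of the general neuron list had a level of 322, with library medians from 279.5 to 341, and all 12 members lay above the median of all detected genes. Snap25 led the list, followed by the vesicle protein Syp, at 1276, 1391 and 1379, and the deubiquitinase Uchl1, at 857, 817 and 797. Syt1, the calcium sensor of release, had 341, 405 and 403. Rbfox3, a splicing factor that marks neuronal nuclei as NeuN, had 227, 252 and 233. The summed level of the list was 6711, 7696 and 7826 (7411 ± 609.8).

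Markers of glutamatergic neurons had a median of 164 and those of GABAergic interneurons one of 42.8, and the library medians of the 2 lists did not overlap. Slc17a7, the glutamate transporter of vesicles in hippocampal and cortical neurons, had 923, 965 and 882 and Cpne6, a calcium-binding copine, had 581, 647 and 1016. The transcription factor genes Neurod6 and Neurod2 had 221, 276 and 267 and 71.2, 83.8 and 67.7. Peptide genes were among the highest of the interneuron list, with somatostatin (Sst) at 822, 671 and 625 and neuropeptide Y (Npy) at 204, 187 and 143. Of the GABA-synthesising enzymes, Gad1 overlapped Npy, at 119, 159 and 192, and Gad2 lay below both, at 21.9, 32.6 and 31.4, and the vesicular GABA transporter Slc32a1 was the lowest of the list at 7.06, 6.45 and 4.82. Mean levels in this list thus ran from 6.11 to 706.

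Glial mRNA was abundant in the fraction. Astrocyte markers had a median of 127, oligodendrocyte markers 89.1 and microglial markers 79.9, and the library medians of astrocytes overlapped those of oligodendrocytes, as did those of oligodendrocytes and microglia. All 14 astrocyte and all 15 microglial members lay above the median of detected genes, and 13 of the 14 oligodendrocyte members did. Among astrocyte markers, the intermediate filament gene Gfap had 324, 379 and 480, the glutamate transporter gene Slc1a3 280.2, 298 and 387 and the neurotensin receptor gene Ntsr2 401, 337 and 420. The water channel gene Aqp4 had 36.7, 44.02 and 46.7, but its gene counts of 1638, 1678 and 1414 stand against 881, 1092 and 620 summed over its transcripts, so its level is uncertain. Summed, the astrocyte list reached 3829, 3863 and 4921, of which Aldoc made up 54.1%.

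Oligodendrocyte markers summed to 13123, 16613 and 19593, more than the neuron list, but Mbp alone was 67.6% of that sum. Cnp, a myelin enzyme, had 325, 560.4 and 611, and is outside the rule by which genes were named. Markers of oligodendrocyte precursors were lower, with a median of 9.03. Their lineage factor Olig1, which mature cells also express, had 184, 209 and 186, whereas the precursor receptor genes Pdgfra, Cspg4 and Gpr17 had 5.87, 5.76 and 6.02, 5.53, 4.86 and 4.01 and 8.20, 11.6 and 9.51. The 3 subunits of complement C1q, which microglia make, were C1qa at 208, 158 and 189, C1qb at 368, 286 and 362 and C1qc at 284, 227 and 262. The lysosomal protease gene Ctss had 316, 268 and 286.

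Vascular mRNA was scarce. The endothelial list had a median of 1.24 and the mural list, pericytes and smooth muscle, a median of 2.31. Of the 26 members of both lists, 21 had a mean level under 10 and 10 had one under 1, and the 26 together summed to 199, 206 and 232 (212 ± 17.5), against 2800.2 ± 272 for Snap25 alone. The junction protein gene Cldn5 had 4.26, 5.94 and 8.67, Pecam1 0.468, 0.523 and 1.24 and the cadherin gene Cdh5 0.269, 0.157 and 0.124. The pericyte receptor gene Pdgfrb had 1.76, 2.62 and 2.28 and Rgs5 6.57, 7.61 and 7.14. The highest of the 26 was Vtn, the plasma and matrix protein vitronectin, at 74.4, 61.7 and 89.7, followed by Itm2a at 39.8, 39.8 and 36.7 and Slco1c1, a thyroid hormone transporter that astrocytes also express, at 23.2, 31.8 and 24.3. No member was at 0 in all 3 libraries.

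Other non-neural cells differed widely. Perivascular macrophage markers had the lowest median of the 15 lists, 0.993, with the scavenger receptor gene Mrc1 at 0.886, 0.715 and 1.09. Fibroblast markers had a median of 4.99, led by the proteoglycan gene Dcn at 149, 120.4 and 98.8, while the collagen gene Col1a1 had 1.15, 1.19 and 1.15. Red blood cell markers ranked second of the 15 lists with a median of 289, because the list holds 4 haemoglobin genes: Hba-a1 had 389, 445 and 839 and Hbb-bs 426, 388 and 754. These genes share from 59.4% to 91.0% of their 31-base stretches with other genes, mainly each other, so their split is uncertain, and the anion exchanger gene Slc4a1 of red blood cells had only 0.0295, 0.0863 and 0.261.

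Choroid plexus markers were present in all 3 libraries. Their median was 19.9, and they summed to 3658, 6312 and 3805, of which Ttr was 64.7%. Enpp2, the secreted enzyme autotaxin, which oligodendrocytes make too, had 743, 1447 and 1208. The other defining genes, the co-receptor gene Kl and the folate receptor gene Folr1, had 12.6, 23.3 and 17.6 and 53.3, 93 and 55.7. Ependymal markers had a median of 8.98, with the cilium factor Foxj1 at 2.48, 4.87 and 2.56. Markers of immature neurons and dividing cells had a median of 1.61, with doublecortin (Dcx) at 1.54, 1.77 and 1.54 and the progenitor factor Sox11 at 4.34, 4.34 and 2.95.

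**Figure D2:**
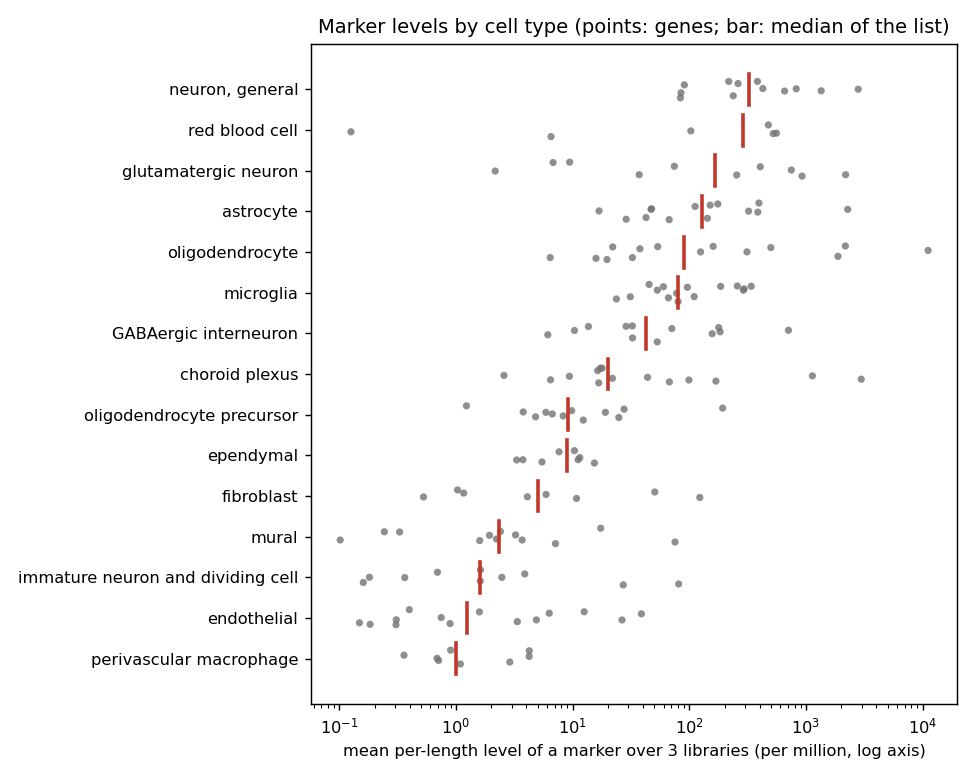
Per-length level (log axis, library total scaled to 1000000) of the members of 15 cell type marker lists, 1 point per gene as the mean of libraries B, D and E, with the median of each list marked and lists ordered by it. Neuronal markers centre on 322 and endothelial markers on 1.24.

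Genes that mark the fields of the hippocampus were detected throughout. In the CA1 list the median was 65.4, with the calcium-regulating membrane protein gene Wfs1 at 91.9, 105 and 121 and Mpped1 at 119, 142 and 110.2. The CA2 list had a median of 67.3, led by the calmodulin-binding peptide gene Pcp4 at 392.3, 427 and 317 and the signalling regulator Rgs14 at 94.2, 121 and 154. The CA3 list had a median of 30.4, led by Bok, a relative of the BCL2 family, at 215, 219 and 184. The dentate gyrus list had a median of 9.50, where C1ql2, a synaptic organiser of the mossy fibres, had 177, 176 and 209 and the granule cell factor Prox1 7.28, 10.8 and 10.9. Markers of neighbouring and distant regions had lower medians: 3.96 for the thalamus, 3.71 for the neocortex, 3.65 for the striatum and 0.524 for the cerebellum. By mean summed level the striatum list was close to the dentate gyrus list, at 261 against 262. The striatum list summed to 256, 286 and 242 and the dentate gyrus list to 237, 260 and 289. Of the 7 members of the striatum list, 2 had a mean over 100. The cerebellar granule cell receptor gene Gabra6 had 0.0353, 0 and 0.0520, and the enzyme gene Th of catecholamine neurons had 0.998, 1.57 and 1.82 in a monoamine and acetylcholine list with a median of 0.261. Some members of these outside lists are also used in the hippocampus, as with Calb1, which made up 95.2% of the summed cerebellar list at 62.3, 74.02 and 89.3.

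The machinery of transmitter release lay near cytosolic ribosomal protein genes by list median, and below glycolysis, the cytoskeleton and translation factors. All 30 members of the vesicle list lay above the median of detected genes and 23 had a mean over 100, with a list median of 198. Snap25 and Syp led the list. Syn1 and Syn2, the synapsins that tether vesicles, had 232, 299 and 389 and 369, 455 and 514. Postsynaptic density genes were lower and more spread, with a median of 37.9 and 10 of 30 over 100. Nrgn led them, followed by Ppp3ca, the catalytic subunit of calcineurin, at 979, 1225 and 1244 and Psd, an exchange factor for ARF6, at 577, 573 and 492. The main scaffold gene of the density, Dlg4, encoding PSD-95, stood at only 47.8, 44.3 and 26.2, and its relatives Dlg2 and Dlg3 at 15.95, 16.5 and 12.9 and 29.8, 45.6 and 54.96.

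Receptor mRNAs were low to moderate. The glutamate receptor list had a median of 20.02, the lowest of the lists of nuclear genes by function. Of its 22 genes, 14 lay above the median of detected genes and 8 had a mean under 10. The GABA receptor list had a median of 44.3, and 12 of its 14 genes lay above the median of detected genes. Of the 22 glutamate receptor genes, 3 had a mean over 100: the AMPA receptor subunit genes Gria2, at 269, 351 and 352, and Gria1, at 156, 178 and 171, and the obligatory NMDA receptor subunit gene Grin1, at 142, 152 and 151. Gria3 was lower at 44.5, 49.6 and 50.2. Of the 14 GABA receptor genes, 4 had a mean over 100, led by Gabbr1 of the metabotropic receptor at 241, 237 and 189.8 and Gabra5, a subunit of extrasynaptic receptors, at 187, 238 and 208. The alpha subunit genes Gabra2 and Gabra3 had 37.1, 41.2 and 36 and 14.5, 14.9 and 12.2. Cnr1, the gene of the receptor that the study's drug blocks, had 33.9, 31.04 and 27.3 and ranked 4632 of all genes.

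Transcripts known to be carried into dendrites had a median of 68.5, with 19 of 20 above the median of detected genes. Camk2a, the kinase of long-term potentiation, had 249, 293 and 252, the dendritic protein gene Ddn 357, 309 and 216 and the microtubule-binding Map1a 45.2, 53.4 and 50.1. Kif5a, a motor of axonal transport, had 264, 363 and 442. Immediate early genes, which neurons switch on within minutes of activity, had a median of 41.1. Arc, which drives removal of AMPA receptors, had 139, 211 and 153, Junb 119, 157 and 151, Egr1 91.4, 153 and 123 and Fos 34.1, 53.02 and 36.2, whereas Fosb had 0.977, 1.14 and 0.525. Arc, Egr1 and Fos were highest in library D.

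Glycolysis and the cytoskeleton had the highest medians of the lists of nuclear genes by function. Glycolysis had a median of 798 over 16 genes, all over 100, although the lengths of Tpi1 and Ldhb are among the 89 replaced ones, and the cytoskeleton list one of 391 over 26. Actb and Actg1, the cytoplasmic actins, had 1334, 2086 and 2571 and 1301, 1518 and 1838, and the tubulin gene Tubb2a had 1486, 1638 and 2439. Cytosolic ribosomal protein genes had a median of 185, with 69 of 79 over 100, led by Rpl13 at 1058, 886 and 875. Translation factors had a median of 217, led by Eif5a at 1008, 1029 and 881 and Eef1a1 at 910.4, 911 and 922. Subunits of the respiratory chain encoded in the nucleus had a median of 337, led by Cox8a and by Atp5b, a catalytic subunit of ATP synthase, at 1592, 1859 and 2752. The secreted peptide list had a median of 177, led by cholecystokinin (Cck) at 1012, 927 and 844 and the granin gene Chgb at 658, 750.2 and 906.

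Many genes were silent. In all 3 libraries 4600 of 22248 genes (20.7%) had no counts. Olfactory receptor genes, used by sensory neurons of the nose, were at 0 in 876 of 1135 cases and vomeronasal receptor genes in 206 of 322. Gene segments of immunoglobulins and T-cell receptors were at 0 in 422 of 451 cases.

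Most genes were dominated by 1 transcript. Among 9879 genes with at least 100 counts in each library and at least 2 annotated transcripts, the leading transcript held a median of 87.8% ± 0.269 of the gene's counts. It held over 95% in 3506 genes (35.5%) and under 50% in 823 (8.33%). The leading transcript was protein coding in 9496 genes (96.1%), and in 143 it was annotated as a target of nonsense-mediated decay and in 119 as a retained intron. The same transcript led in all 3 libraries in 8785 genes (88.9%), and in the other 1094 the leading and the second transcript were close, with a median gap of 9.61 percentage points against 83.4. These are estimated counts, and short reads often fit several transcripts of a gene.

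The exons of the AMPA receptor genes show which mRNA forms the fraction held, while the channels themselves were not measured. Each of Gria1 to Gria4 holds a pair of 115-base exons, flip and flop, of which an mRNA usually uses 1. The exon codes for a stretch beside the last membrane segment, and it sets how fast the channel closes and desensitises in the presence of glutamate. The pairs of Gria1 and Gria2 are printed because the 2 genes went opposite ways, in lower case with capitals at the 36 bases at which the flip and flop exons of a gene differ, 5′ to 3′ on the coding strand. Coordinates are of GRCm38: the Gria1 exons lie at chr11:57309769-57309883 (flop) and chr11:57310608-57310722 (flip) on the plus strand, and the Gria2 exons at chr3:80691320-80691434 (flop) and chr3:80690404-80690518 (flip) on the minus strand.
Gria1 flop: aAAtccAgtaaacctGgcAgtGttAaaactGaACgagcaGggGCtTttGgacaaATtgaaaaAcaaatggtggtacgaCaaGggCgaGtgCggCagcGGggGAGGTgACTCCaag
Gria1 flip: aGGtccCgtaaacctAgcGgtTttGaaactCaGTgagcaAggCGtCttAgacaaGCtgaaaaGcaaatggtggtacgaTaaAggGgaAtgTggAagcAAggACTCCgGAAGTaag
Gria2 flop: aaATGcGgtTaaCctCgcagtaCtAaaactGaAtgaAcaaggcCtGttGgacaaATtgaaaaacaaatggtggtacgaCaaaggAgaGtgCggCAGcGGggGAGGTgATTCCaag
Gria2 flip: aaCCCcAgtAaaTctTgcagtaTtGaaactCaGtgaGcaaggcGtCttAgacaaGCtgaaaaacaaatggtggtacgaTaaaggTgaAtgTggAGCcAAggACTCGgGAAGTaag
In Gria1 the flip share, from counts per transcript length, was 25.5, 24.8 and 27.6%, so flop was the major form. In Gria2 it was 77.6, 84.1 and 84.3%, so flip was the major form there. By share of counts without the length step, flip was 26.01, 25.3 and 28.1% for Gria1 and 57.3, 67.3 and 67.7% for Gria2. The Gria2 transcripts that hold the 2 exons differ in annotated length, 4026 bases against 10371, so the size of that share depends on the length step and its side of 50% does not.

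The other AMPA receptor genes had fewer counts. Gria3 used flip in 90.3, 86.8 and 82.8% per length of its transcripts with only 1 of the exons. Gria3-206, annotated with both exons and left out, held 10.1, 5.62 and 6.50% of Gria3 per length. Gria4, with only 194, 228 and 142 counts on its flip transcript, gave 39.6, 53.5 and 38.9% flip, and the library with the most flip lay on the other side of 50% from the rest. These shares leave out the shorter Gria4-203, counted with neither exon, which held 59.4, 66.5 and 67.5% of Gria4 per length. The flop counts were assigned to Gria4-204 in B and E and to Gria4-201 in D. The flip and flop exons differ at 32 bases in Gria3 and at 31 in Gria4.

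Snap25 and Pkm hold pairs of exons as well, and both gave shares that were close to equal in the 3 libraries. In Snap25 the 2 exons code for the stretch with the cysteines that carry the membrane anchor; the downstream one is known as the form of the mature brain. In Pkm, pyruvate kinase, the last enzyme of glycolysis, the upstream exon gives the M1 enzyme typical of neurons and muscle and the downstream exon the M2 enzyme typical of astrocytes and dividing cells. Capitals mark the bases that differ within a pair, 31 of 118 in Snap25 and 64 of 167 in Pkm. In GRCm38 the Snap25 exons lie at chr2:136769743-136769860 and chr2:136770057-136770174, and the Pkm exons at chr9:59675029-59675195 and chr9:59675568-59675734, all on the plus strand.
Snap25 upstream exon: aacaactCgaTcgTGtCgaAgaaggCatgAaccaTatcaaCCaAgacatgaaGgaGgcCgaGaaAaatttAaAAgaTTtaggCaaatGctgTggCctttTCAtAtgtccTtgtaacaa
Snap25 downstream exon: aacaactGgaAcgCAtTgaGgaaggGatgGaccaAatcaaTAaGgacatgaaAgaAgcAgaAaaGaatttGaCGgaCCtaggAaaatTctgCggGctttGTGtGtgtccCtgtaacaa
Pkm upstream exon: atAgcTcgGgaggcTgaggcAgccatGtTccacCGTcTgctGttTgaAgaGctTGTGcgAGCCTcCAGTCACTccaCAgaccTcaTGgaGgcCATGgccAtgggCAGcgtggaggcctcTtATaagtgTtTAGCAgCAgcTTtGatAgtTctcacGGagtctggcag
Pkm downstream exon: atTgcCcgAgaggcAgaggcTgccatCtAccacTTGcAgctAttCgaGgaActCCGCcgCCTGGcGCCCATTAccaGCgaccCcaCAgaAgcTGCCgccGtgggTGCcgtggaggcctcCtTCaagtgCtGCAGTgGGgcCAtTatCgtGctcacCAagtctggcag
The downstream exon made up 96.4, 96.5 and 96.9% of Snap25. The upstream, M1 exon made up 68.2, 69.2 and 69.97% of Pkm, and the M2 exon 31.8, 30.8 and 30.03%. The 3 libraries were within 2 percentage points of each other for both genes, although the level of Pkm itself was 1260.4, 1682 and 2879, highest in E. Of the 31-base stretches of Pkm, 59.6% also occur in other genes, mainly a processed copy.

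Cassette exons, which are either included or skipped, ranged widely in share. In Grin1 the 63-base exon in the extracellular part was included in 11.5, 10.4 and 10.5%. The 111-base exon in the intracellular tail was included in 36.98, 43.6 and 34.4% of the compared transcripts. Transcripts in neither group are left out there, among them Grin1-202 at 13.3, 13.3 and 9.68% of Grin1 counts. The share of the 111-base exon would thus be lower over all transcripts. In addition, 34.1% of the exonic sequence of Grin1 overlaps an antisense gene. The clathrin light chains have inserts used in neurons. By the measure used for the Grin1 exons, the 54-base exon of Clta was included in 85.5, 86.6 and 88.4%. Its 36-base exon was included in 74.1, 72.4 and 77.4%. The first share leaves out Clta-201, Clta-202 and Clta-206, which hold neither exon, Clta-206 at 15.8, 17.9 and 15.0% of counts. The second leaves out Clta-204, which lacks the 36-base exon, at 10.9, 9.61 and 8.75%. Both shares would thus be lower over all transcripts. The 54-base exon of Cltb was included in 76.4, 74.7 and 72.04%. In App the 168-base exon, which codes for a protease inhibitor domain more common outside neurons, was included in only 2.97, 3.15 and 3.35%. Dnm1, the dynamin of vesicle recycling, has a pair of mutually exclusive 139-base exons and used the downstream one in 61.9, 65.7 and 67.2%. Dnm1-206, left out of that share, held 22.7, 13.7 and 12.1% of Dnm1 per length.

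Alternative ends separated the forms of several synaptic proteins. For Ntrk2, the receptor of the growth factor BDNF, transcripts ending at the stop codon of the truncated receptor without a kinase held 66.04, 63.1 and 66.3% and those of the full kinase form 32.7, 32.2 and 25.8%. For Homer1, the long scaffold forms that cross-link receptors held 85.02, 78.02 and 73.3%. The synapsin genes were close to evenly divided: the shorter coding form was 51.4, 54.8 and 53.1% of Syn1 and 53.01, 50.4 and 46.3% of Syn2, or 61.4, 58.98 and 55.1% of Syn2 by counts without the length step. In Map2, transcripts with the 3741-base exon of the large dendritic forms held 11.1, 17.9 and 22.3%.

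**Figure D3:**
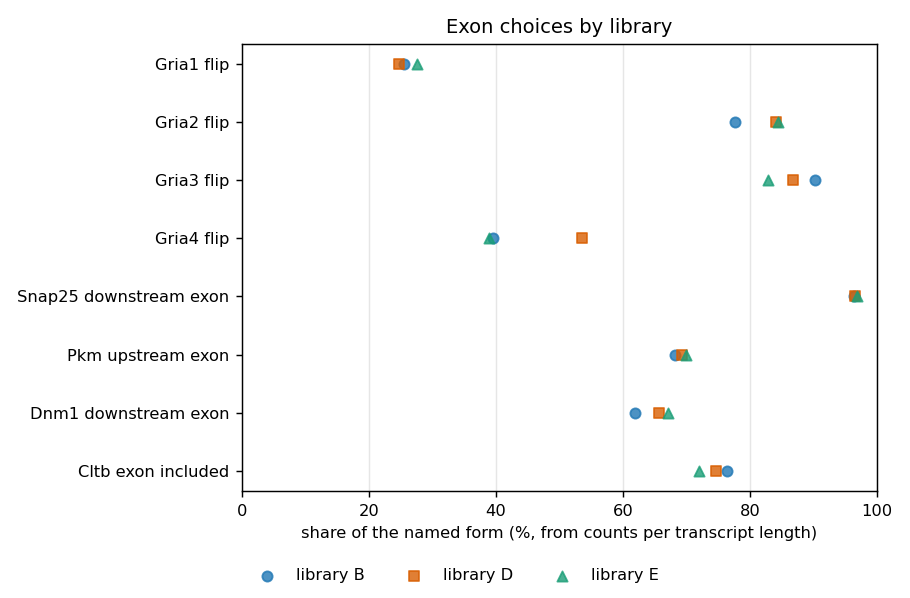
Share of the named form (%, from counts per transcript length) for 8 exon choices, with 1 symbol for each of libraries B, D and E. Gria1 flip lies between 24.8% and 27.6% and Gria2 flip between 77.6% and 84.3%, while Snap25 sits above 96% in all libraries and Gria4 is the most scattered.

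Some abundant genes had no dominant transcript. Tcf4, a transcription factor gene with 62 annotated transcripts, had the lowest leading share of the 500 highest genes with several transcripts, averaged over the libraries. Tcf4-203 held 18.8, 14.6 and 13.02% and led in B and D, whereas Tcf4-205 led in E with 16.6%. Agap3, Celf4, Mgll and Ndufab1 followed. In Mgll, which encodes the lipase that ends signalling by the cannabinoid 2-arachidonoylglycerol, the protein-coding Mgll-207 held 37.1, 20 and 19.8% and Mgll-209, annotated as a target of decay, 34.3, 33.3 and 32.8%, so a different one led in B than in D and E. The highest genes whose leading transcript differed between libraries were Dynll1, Hsp90aa1, Map1b, Ywhaq and Klc1. In Ywhaq, a 14-3-3 protein gene, Ywhaq-202 held 40.6, 47.1 and 68.6% and Ywhaq-201 nearly all of the rest. In Hsp90aa1, a chaperone gene, Hsp90aa1-202 held 39.7, 47.8 and 57.3%. Gnas and Shank3, from the same fixed panel, are not described because their gene and transcript counts differed by over 10%.

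The 3 libraries were close to each other for most genes. On counts scaled by TMM, which puts the bulk of genes of all libraries on 1 level, the median CV of the 11406 genes with a mean of at least 100 counts was 11.9%, with quartiles of 7.21% and 18.0%. Counting alone would give 3.72%. The median CV was 22.6% for genes with 10 to 100 counts and 12.5%, 11.0% and 12.3% in the higher bins, so more counts no longer narrowed it. Across genes, which are not independent replicates, Pearson's r of log2 values was 0.986 between B and D, 0.986 between D and E and 0.973 between B and E. Library D lay between the other two for 53.3% of genes. Genes over 2-fold apart made up 0.254% (B and D), 0.184% (D and E) and 1.38% (B and E).

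**Figure D4:**
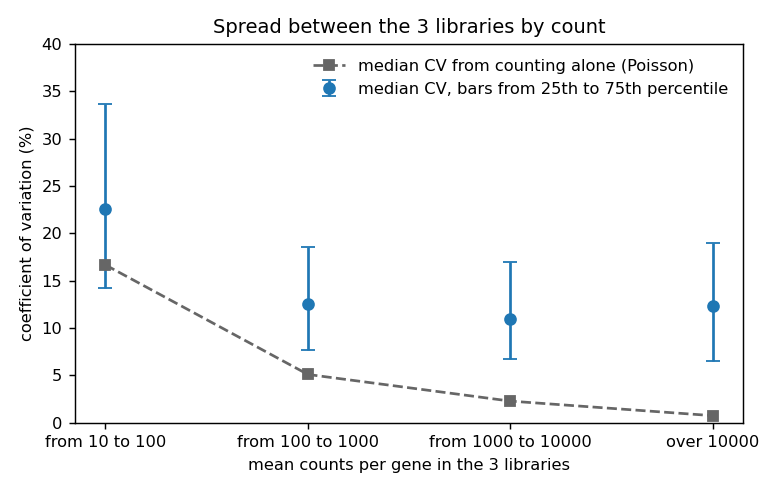
Coefficient of variation between libraries B, D and E (%) by mean count per gene, as the median with bars from the 25th to the 75th percentile, beside the median that Poisson counting alone gives (squares). The median falls from 22.6% in the lowest bin to 11.0% in the next to highest, while the counting part falls to 0.753% in the highest bin.

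Whole gene groups moved together from library to library. Over all 11406 genes, TMM-scaled counts were highest in B for 39.0%, in D for 23.7% and in E for 37.2%, and lowest in B for 39.0%, in D for 22.9% and in E for 38.1%, and these are the shares to read the following counts against. Scaled by total counts instead, 29.4% were highest in B, 40.1% in D and 30.48% in E, and on per-length levels 17.2%, 48.5% and 34.3%. Those scalings shifted the median of all genes relative to TMM, by at most 0.07 and 0.12 on the log2 scale in any library. The median difference of all genes from the mean of the 3 libraries was within 0.01 of 0 on the log2 scale in every library. None of these differences between libraries was tested, since each library is a single sample.

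Library B was high in mitochondrial and ribosomal mRNA. All 13 mitochondrially encoded mRNAs were highest there, with a median 0.48 above the mean of the 3 libraries on the log2 scale. So were 78 of 79 cytosolic ribosomal protein genes (median 0.33 above) and 66 of 76 nuclear-encoded respiratory chain genes (median 0.29 above). Transcript length moved with this: of the 1139 genes (10%) with the shortest transcripts (median 919 bases), 86.5% were highest in B, and 67 of the 79 ribosomal and 57 of the 76 respiratory chain genes belong to those. Those length groups left out the 13 mitochondrially encoded mRNAs, whose median length was 784 bases. The part of length in these counts was not tested. Of the secreted peptide and granin genes, 12 of 16 were highest in B, and of the GABAergic interneuron markers 10 of 12, but 8 and 7 when per-length levels were compared.

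Library E was high in glycolytic and haemoglobin mRNA. All 16 glycolysis genes were highest there, by a median of 0.43 above the mean of the 3 libraries on the log2 scale, and this held under each of 5 scalings. Pgk1, phosphoglycerate kinase, had levels of 359, 397 and 705, and Hk1, hexokinase, had 114, 170.3 and 256. All 5 red blood cell markers with enough counts were highest in E as well (median 0.57 above), with Hba-a2 at 389, 385 and 649.7. Astrocyte markers were highest in E for 11 of 14, with a median of 0.11 above the mean. Of 30 postsynaptic density genes, 20 were lowest in E, as Dlg4 was. The part of blood or of astrocytes in the glycolysis values was not tested.

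Library D was high in choroid plexus and activity-regulated mRNA. Of 14 choroid plexus markers, 13 were highest in D, with a median of 0.44 above the mean of the 3 libraries on the log2 scale, and Ttr, Kl and Folr1 were among the 13. Of 12 immediate early genes with enough counts, 9 were highest in D (median 0.19 above). Oligodendrocyte markers were highest in D for 9 of 14 and lowest in B for 10 of 14, whereas 14 of 15 microglial markers were lowest in D (11 to 14 over the 5 scalings). The synaptic vesicle list had a median CV of 9.19% and the general neuron list one of 9.60%, below the 11.9% of all genes. Other synaptic and neuronal lists lay above it, with 15.6% for postsynaptic density, 14.8% for dendritic and 17.1% for GABAergic interneuron genes. The choroid plexus list had a median CV of 30.9%.

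**Figure D5:**
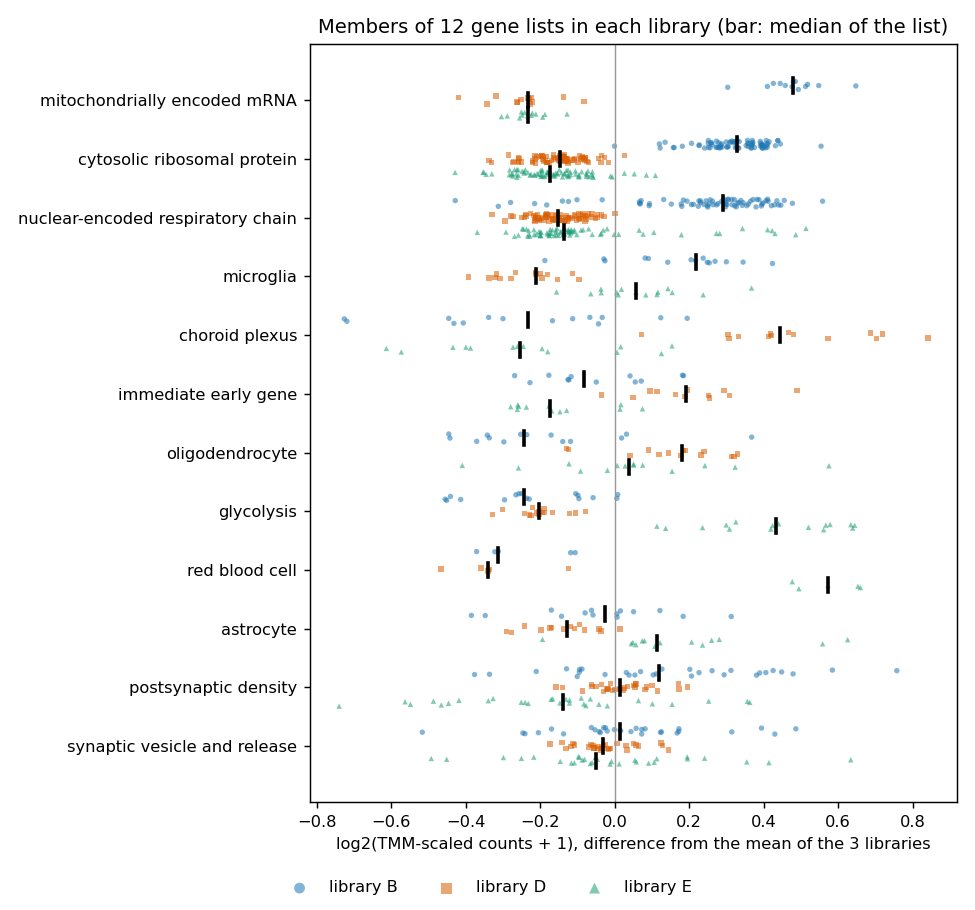
Difference of each gene from its mean over the 3 libraries (log2 of TMM-scaled counts + 1) for the members of 12 gene lists, with 1 symbol per gene and library and a bar at the median. Glycolysis and red blood cell genes lie to the right in E, ribosomal and mitochondrial genes in B, and choroid plexus genes in D, with medians of 0.43, 0.57, 0.33, 0.48 and 0.44.

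Of the 10 genes with the largest CV, 5 share over 50% of their 31-base stretches with other genes, and 4 share under 1%. Nnt, an enzyme of the inner mitochondrial membrane, is listed under a pair of identifiers: 1 entry had 0, 306 and 0 estimated counts, and the other 320, 151 and 424. Summed, the entries had 320, 457 and 424 counts. Exosc6 (an RNA exosome subunit) had 291, 235 and 0 counts and Rps27rt (a ribosomal protein copy) 408, 203 and 56.05, and 100% and 92.7% of their 31-base stretches occur in other genes. Genes without such copies also varied. Nlgn2, the adhesion protein of inhibitory synapses, had 1786, 983 and 437 counts, and Bace2, a membrane protease, had 195, 80.96 and 49.1, both highest in B and lowest in E. The steadiest of the 1000 highest genes were Eid1, Dazap2, Hmgb1, Map1a and Ank2, with CVs from 0.279% to 0.621%. Of these, Map1a and Ank2 organise microtubules and the membrane skeleton of neurons.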

How the data were processed

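RNA from 3 vehicle libraries was described from the gene and transcript tables. Per the labels, total RNA was extracted with an RNeasy mini kit, and SMARTer Ultra Low Input reagents were used for the libraries. The deposited values are estimated counts, 82.6% of the gene values above 0 not being whole numbers. The submitters' processing notes name Salmon 1.5.2 and mm10. The annotation release and the use of strand are not given in the sources used here. Names, lengths, exons and sequences came from GENCODE M21 (GRCm38), which held 22194 of the 22248 genes and 101575 of the 102392 transcripts. For 22181 genes the deposited identifier has a higher version, so lengths and exons may differ from those used for counting.

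Estimated counts were divided by abundance-weighted transcript length and scaled to 1000000 per library. Spread was computed on TMM-scaled counts (edgeR 4.0.16, R 4.3.3) and the remaining values with Python 3.11.15 and pandas 2.3.3. With 1 group there is no comparison and no test. The spread computation was tested on simulated data. Exon shares are counts per transcript length over the compared forms, from coding transcripts with at least 1% of their gene's counts. For a cassette exon, transcripts with it were set against those joining the exons beside it. For a pair of exons, transcripts with only 1 of them were compared. Other transcripts of the gene are left out of these shares. Shared sequence was measured as the percent of a gene's 31-base stretches found in other genes.

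Named are the 30 nuclear genes with the highest mean and the highest and lowest mitochondrially encoded mRNAs, of each list the 3 highest and first 3 members, a fixed isoform panel, and genes with extreme spread or mixed isoforms. From each of these only the genes that carry a pattern are printed, and some genes that the rule names are not reported here. Cnr1, Pgk1, Slc4a1, Cnp, Prdx6, Myl12b and Ptp4a1 were added after their values were seen. The library choice, the lists and the panel were made with earlier results of these data known. Alternatives were other lengths, CPM, low-count filters, other scalings and leaving out each library.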

Additional observations from a re-analysis of the deposited data

How the results depend on the processing

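The median levels of the neuron, glutamatergic, astrocyte, oligodendrocyte, microglia, GABAergic and choroid plexus lists kept that order under all 8 length, filter and leave-one-out settings, except that without D the oligodendrocyte median (77.6) lay below the microglia one (82.7). With CPM the endothelial median (2.14) exceeded the mural one (1.91). With CPM, which uses no length, 645 genes held 50% of the signal, the 20 highest genes held 13.3% and mitochondrially encoded genes 7.44%; the neuron list summed to 9378, the astrocyte list to 5697 and the microglia list to 1573. With the longest transcript as length, the sums were 6483 for neurons, 10579 for oligodendrocytes, 2331 for microglia and 249.7 for the vascular lists. Without mitochondrially encoded genes, 557 genes held 50% and the top 20 held 12.1%, and the sums were 8636 (neurons), 4899 (astrocytes), 2348 (microglia) and 247 (vascular). Without its highest member, a list summed to 4611 (neurons), 1932 (astrocytes), 5331 (oligodendrocytes), 1670 (microglia), 137 (vascular) and 1620.2 (choroid plexus). The median leading share was 88.5% with a minimum of 20 counts, 88.9% with 1000, 82.0% per transcript length and 90.1% over protein-coding transcripts alone.

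Leaving out each library in turn gave 320.5 to 381 genes for 50% of the level, 19.7% to 22.4% for the top 20 and 12.4% to 15.3% for mitochondrially encoded genes. The sums ran from 7189 to 7787 (neurons), 3849 to 4386 (astrocytes), 14854 to 18138 (oligodendrocytes), 1957 to 2110.0 (microglia), 203 to 218 (vascular) and 3731 to 5070.3 (choroid plexus). The median leading share ran from 87.7% to 87.9%, and the same transcript led in 91.1% to 93.7% of genes. The median CV was 8.11% without B, 8.74% without E and 12.9% without D. Fth1 was the highest nuclear gene except with CPM (Mbp) and the longest transcript (Cst3). No paired analysis was possible because only 1 group was described and no result comes from a test. With 3 libraries, an SD is itself imprecise, and levels near 3 counts per library cannot be told from 0.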

Other observations

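In several abundant genes the leading transcript is annotated as other than protein coding. Mobp, the myelin gene, gave 92.0%, 90.2% and 93.4% of its counts to Mobp-204, annotated as a target of nonsense-mediated decay, in libraries B, D and E. Ppia gave 60.9%, 54.8% and 51.9% to Ppia-201, of the same type, and Prdx6, a peroxidase, 61.8%, 58.0% and 58.9% to Prdx6-208. Uchl1 gave 65.2%, 51.9% and 55% to Uchl1-202, a retained intron. These 4 are among the highest of the 383 genes of 9879 whose leading transcript is of another type.

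GC content differed in its relation to the libraries. Of the 1139 genes with the highest GC content (median 60.2%), 57.0% were highest in B, 15.9% in D and 27.1% in E. Of the 1139 with the lowest (median 40.1%), the shares were 30.47%, 37.6% and 31.96%. Of the 1139 with the longest transcripts (median 7935 bases), 48.2% were highest in B.

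Several symbols are listed under a pair of identifiers and divide their counts. Myl12b, a myosin light chain, had 4709, 4101 and 3202 counts in 1 entry and 5401, 4936 and 3490 in the other. Ptp4a1, a phosphatase, had 12.4, 21.3 and 43.1 in 1 entry and 3419, 4440 and 2975 in the other.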
